A study of Mus musculus with 6 samples.

Results

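The interleukin-1 (IL-1), IL-18 and IL-33 system was examined in ear skin of mice challenged with FITC (fluorescein isothiocyanate), a reactive dye that sensitises skin on contact. The system was taken as 10 genes, a list drawn up with earlier results of these data known: Il1a, Il1b, Il1rn, Il1r1, Il1r2, Il1rap, Il18, Il18rap, Il33 and Il1rl1. Of these, 8 of the 10 had a probe set that the platform annotation lists with 1 gene symbol, each with 1 such probe set, out of 19938 genes measured that way. Il1r1 and Il1rl1, the receptors of IL-1 and IL-33, were not analysed here, so the receptor side rests on Il1r2, Il1rap and Il18rap. Of 3 CLEC4C-DTR mice (genotype CLEC4C-DTR/+) and 3 littermate controls, 1 FITC-treated ear pinna per mouse was hybridised to 1 array. The transgene is named for the diphtheria toxin receptor and for CLEC4C, which in humans marks plasmacytoid dendritic cells. Cells that express it can be killed with diphtheria toxin. Both groups were 10 to 12 weeks old, and both received 200 ng of toxin on days -1, 1, 3 and 5. Both had 0.5% FITC in acetone and dibutyl phthalate on the abdomen on days 0 and 2 (100 µL each), and 20 µL of it on day 6 on the right ear. No solvent-treated ear, no CLEC4C-DTR mouse without toxin and no mouse without FITC was analysed here, so effects of the transgene, of toxin in transgenic mice and of the cells removed cannot be told apart.

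IL-1α and IL-1β, the products of Il1a and Il1b, are early cytokines of skin inflammation. Both bind the receptor encoded by Il1r1, which signals only after it has recruited the accessory chain encoded by Il1rap. Il1rn encodes an antagonist that occupies the receptor without signalling, and Il1r2 a decoy receptor that binds IL-1 without signalling. IL-18 and IL-33 are relatives of IL-1. IL-18 acts on lymphocytes through a pair of chains, of which Il18rap encodes the accessory one. IL-33 is held in the nuclei of epithelial and stromal cells and, once released, acts through Il1rl1 together with Il1rap. IL-1β and IL-18 are made as precursors that inflammasomes process, so their RNA is not a measure of active cytokine.

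All 8 measured genes had higher mean values in CLEC4C-DTR than in control ears, and 6 of them rose: Il1a, Il1b, Il1rn, Il1rap, Il18rap and Il33. A gene is said to have risen or fallen where limma's two-sided test over all 19938 genes gave a Benjamini-Hochberg adjusted p under 0.05. None of the 8 fell, and Il1r2 and Il18 did not pass. Over all genes 5.01% rose, and 1.67% rose by at least 2-fold, as all 6 of these did. Of the 19938 genes, 860 fell. The 3 CLEC4C-DTR values lay above the 3 control values in each of the 8 genes, which was so for 14.0% of all genes. The median difference of the 8 genes was 1.47 on the log2 scale, against -0.04 over all genes. Values are log2 RMA values, in which a difference of 1 is a 2-fold change.

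**Figure D1:**
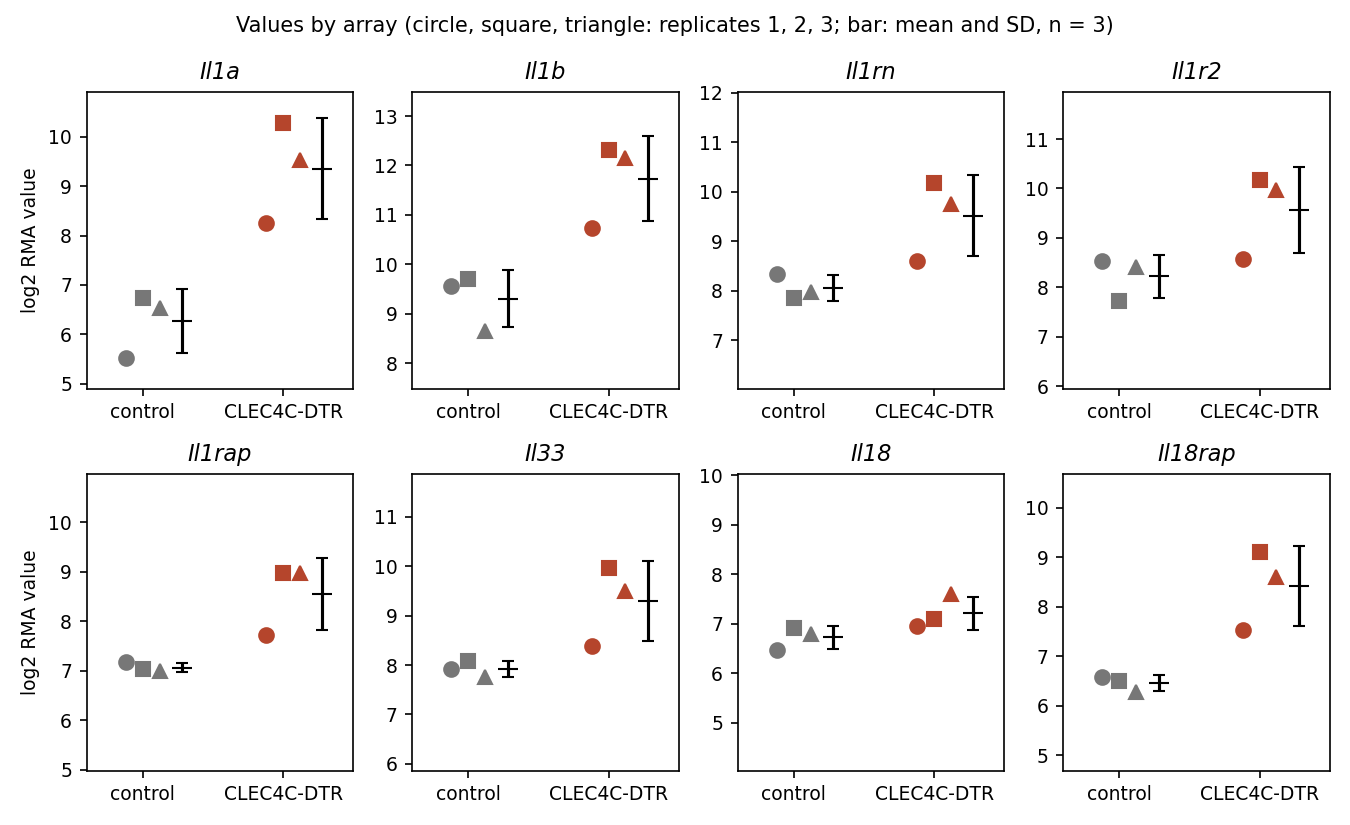
Log2 RMA value (vertical axis, spanning 6 units in each panel) of the 8 measured genes by group, 1 point per mouse, with the mean and SD (n = 3) beside the points. The CLEC4C-DTR values lie above the control values in each panel, by a gap of 1.53 for Il1a and of 0.04 for Il18.

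The largest rise was that of Il1a, whose product is stored by epithelial cells and acts as an alarm signal when they are damaged. Il1a had log2 values of 8.26, 10.27 and 9.52 in CLEC4C-DTR replicates 1, 2 and 3, and of 5.53, 6.73 and 6.54 in littermate control replicates 1, 2 and 3. The lowest CLEC4C-DTR value lay 1.53 above the highest control value, the widest gap among the 8 genes. Il1a was 8.46-fold higher (95% interval 3.83 to 18.7; log2 difference 3.08, SE 0.50, adjusted p = 0.0169). Il1b, which myeloid cells make in large amounts once activated, had values of 10.74, 12.32 and 12.15 in CLEC4C-DTR and of 9.56, 9.71 and 8.65 in control ears. All 3 CLEC4C-DTR values were above the controls, with replicate 1 nearest to them. Il1b was 5.40-fold higher (95% interval 2.72 to 10.7; log2 difference 2.43, SE 0.43, adjusted p = 0.0192). Il1a and Il1b are next to each other among the protein-coding genes of chromosome 2.

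The start sites of the 3 genes with the largest differences, Il1a, Il1b and Il18rap, are shown as RefSeq sequences of mouse build GRCm38.p6, from 250 bases before to 50 after the start, 5′ to 3′ on the gene's strand. They lie at chr2:129309923-129310222 (minus strand), chr2:129371090-129371389 (minus strand) and chr1:40515112-40515411 (plus strand). Capitals mark matches to short motifs: TATAAA on the gene's strand, and on both strands AP-1 (TGANTCA) and C/EBP (TTNNGNAA), motifs named for factor families of inflammatory transcription.

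Il1a: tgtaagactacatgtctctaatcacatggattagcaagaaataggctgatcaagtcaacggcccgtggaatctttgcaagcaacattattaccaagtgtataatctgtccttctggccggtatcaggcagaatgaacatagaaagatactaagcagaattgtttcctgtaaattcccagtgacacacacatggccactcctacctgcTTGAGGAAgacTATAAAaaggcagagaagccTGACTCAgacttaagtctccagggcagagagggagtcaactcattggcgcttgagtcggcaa
Il1b: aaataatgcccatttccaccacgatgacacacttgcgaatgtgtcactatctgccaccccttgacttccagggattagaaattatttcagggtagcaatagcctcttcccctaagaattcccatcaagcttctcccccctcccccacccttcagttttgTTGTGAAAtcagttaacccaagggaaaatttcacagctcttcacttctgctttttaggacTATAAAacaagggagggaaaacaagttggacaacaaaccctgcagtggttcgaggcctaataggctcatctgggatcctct
Il18rap: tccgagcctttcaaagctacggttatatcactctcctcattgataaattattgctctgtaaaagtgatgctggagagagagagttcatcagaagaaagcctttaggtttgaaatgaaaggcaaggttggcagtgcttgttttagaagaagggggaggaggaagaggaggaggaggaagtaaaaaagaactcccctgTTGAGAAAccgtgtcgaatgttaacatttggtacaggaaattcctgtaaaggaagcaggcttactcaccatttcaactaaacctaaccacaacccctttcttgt

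TATAAA began at -32 from the start site of Il1a and at -31 from that of Il1b. A C/EBP match began at -43 in Il1a, at -91 in Il1b and at -54 in Il18rap, and an AP-1 match at -12 in Il1a. All 8 measured genes had an entry, in 11 windows because Il1rn and Il33 have several start sites, with overlapping windows for 2 of those of Il1rn. C/EBP letters were found in 7 of the 11 windows (of Il1a, Il1b, Il1rn, Il18rap and Il33) and in 40.7% of the 32851 windows of all genes. TATAAA was found in 4 of the 11 (Il1a, Il1b and both of Il33) and in 8.32% of all windows, and AP-1 in 2 of the 11 (Il1a and Il1rn) and in 7.81%. The interferon motif GAS (TTCNNNGAA, both strands) was found in 1 of the 11, that of Il1r2, and in 8.30% of all windows. The kappaB consensus had no match in the 11 windows and was found in 4.51% of all windows. It was searched on both strands as GGGRNWYYCC, where R is A or G, W is A or T and Y is C or T. Looser forms of it were not searched, so sites that differ from these letters were not counted. A match is a stretch of letters and not a measured site.

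Of the 2 inhibitors of IL-1, 1 rose. Il1rn, the antagonist, had log2 values of 8.61, 10.19 and 9.76 in CLEC4C-DTR and of 8.35, 7.85 and 7.97 in control ears. CLEC4C-DTR replicate 1 lay 0.25 above the highest control, and the other two lay well above it. Il1rn rose 2.75-fold (95% interval 1.55 to 4.87; log2 difference 1.46, SE 0.36, adjusted p = 0.0441). It did not pass with robust moderation of the variances (adjusted p = 0.0715), and it passed in 1 of the 6 fits with an array left out, the one without CLEC4C-DTR replicate 1. Il1r2, the decoy receptor of neutrophils and other myeloid cells, had values of 8.58, 10.17 and 9.96 in CLEC4C-DTR and of 8.53, 7.73 and 8.42 in control ears. Here CLEC4C-DTR replicate 1 was only 0.05 above control replicate 1. Il1r2 was 2.54-fold higher and did not pass (95% interval 1.34 to 4.82; log2 difference 1.34, SE 0.40, adjusted p = 0.0741). Il1r2 passed when CLEC4C-DTR replicate 1 was left out (log2 difference 1.84, adjusted p = 0.00319) and when arrays were weighted by their scatter (adjusted p = 0.0474).

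Il1rap, the accessory chain that the IL-1 and IL-33 receptors share, was tight in the controls. Its log2 values were 7.17, 7.03 and 6.99 there and 7.72, 8.97 and 8.97 in CLEC4C-DTR ears. The controls spanned 0.18 and the CLEC4C-DTR mice 1.26, with replicate 1 the low one. Il1rap rose 2.80-fold (95% interval 1.72 to 4.58; log2 difference 1.49, SE 0.31, adjusted p = 0.0279). It passed in 1 of the 6 fits with an array left out, the one without CLEC4C-DTR replicate 1, and limma's adjusted p reached 0.112 in the others.

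Il33 had log2 values of 8.39, 9.97 and 9.50 in CLEC4C-DTR and of 7.92, 8.09 and 7.76 in control ears. CLEC4C-DTR replicate 1 was 0.29 above the highest control, and replicates 2 and 3 were higher still. Il33 rose 2.57-fold (95% interval 1.48 to 4.47; log2 difference 1.36, SE 0.35, adjusted p = 0.0485). That p lies at the threshold, and Il33 did not pass when arrays were centred on their medians (adjusted p = 0.0505), when every probe set was tested on its own (adjusted p = 0.0508), or with robust moderation (adjusted p = 0.0783).

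Il18, which keratinocytes hold as a precursor, differed least. Its values were 6.96, 7.09 and 7.59 in CLEC4C-DTR and 6.47, 6.92 and 6.79 in control ears. The groups were separated by 0.04. Il18 was 1.40-fold higher and did not pass (95% interval 1.05 to 1.86; log2 difference 0.49, SE 0.18, adjusted p = 0.126). Il18rap had log2 values of 7.53, 9.11 and 8.61 in CLEC4C-DTR and of 6.59, 6.51 and 6.27 in control ears. All 3 CLEC4C-DTR values were at least 0.94 above the controls, which spanned 0.33. Il18rap rose 3.88-fold (95% interval 2.24 to 6.73; log2 difference 1.96, SE 0.34, adjusted p = 0.0191).

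**Figure D2:**
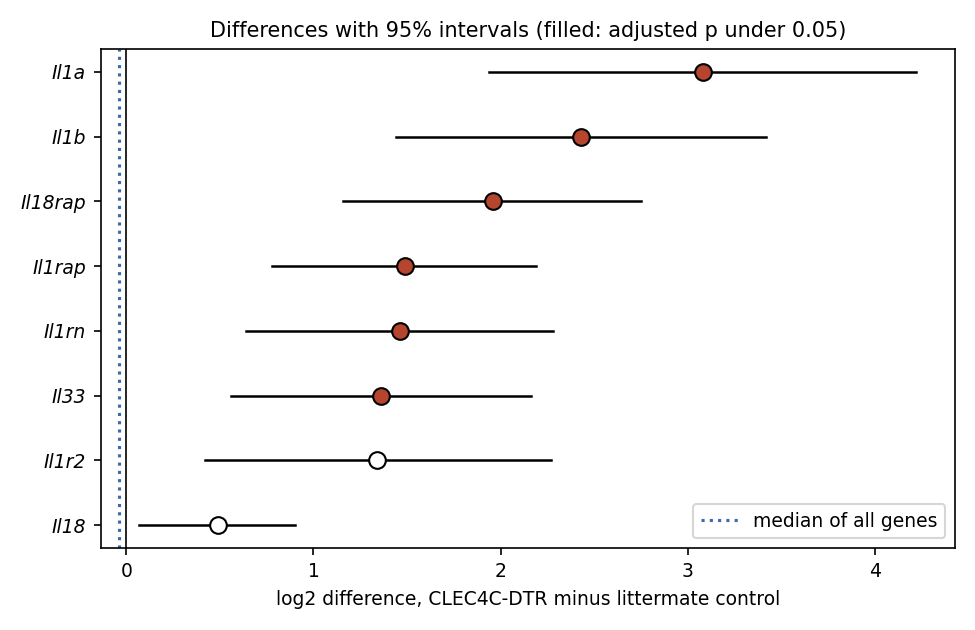
Difference between CLEC4C-DTR and littermate control (horizontal axis, log2) for each gene, with limma's 95% interval as a line; filled points passed an adjusted p of 0.05, and the dotted line is the median of all genes at -0.04. Il1a and Il1b lie highest, at 3.08 and 2.43, and Il18 lies lowest, at 0.49.

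On chromosome 1 the receptor genes lie side by side, in the RefSeq order Il1r2, Il1r1, Il1rl2, Il1rl1, Il18r1 and Il18rap, with no other protein-coding gene between them. The measured genes of this stretch had unlike values. Il1rl2, which encodes the IL-36 receptor, differed by -0.06 (SE 0.11, log2, adjusted p = 0.785). Il18r1, the ligand-binding chain of the IL-18 receptor, had log2 values of 6.77, 7.58 and 6.89 in CLEC4C-DTR and of 6.37, 6.61 and 6.26 in control ears, a difference of 0.66 (SE 0.21, adjusted p = 0.0816). Its neighbour Il18rap differed by 1.96. The difference between these 2 chains was not tested.

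Whether genes of the system differed unequally between the groups was asked of 4 pairs, by the difference of their log2 values within each array. The exact two-sided permutation test over 3 against 3 arrays cannot go below 0.1, so no pair could pass. Il1b minus Il1rn, agonist against antagonist, was 2.14, 2.14 and 2.39 in CLEC4C-DTR and 1.21, 1.86 and 0.68 in control ears. The 3 CLEC4C-DTR values all lay above the controls, by 0.97 in the mean (exact permutation p = 0.1, adjusted over the 4 pairs 0.20). Il1b minus Il18 was 3.79, 5.23 and 4.57 in CLEC4C-DTR and 3.09, 2.79 and 1.86 in control ears. This too separated the groups, with a difference of 1.95 (exact permutation p = 0.1, adjusted 0.20). For Il1b minus Il1a the groups overlapped, with a difference of -0.65 (exact permutation p = 0.4, adjusted 0.53). They overlapped too for Il1r2 minus Il1rap, decoy against accessory chain, with a difference of -0.14 (exact permutation p = 0.7, adjusted 0.70).

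The CLEC4C-DTR mice were not alike. Replicate 1 was the lowest of its group in all 8 genes, and replicate 2 the highest in 7, with replicate 3 the highest in Il18. Set against the mean of the controls, the median of the 8 genes was 0.60 in CLEC4C-DTR replicate 1, 2.09 in replicate 2 and 1.82 in replicate 3 (log2). The controls had medians of 0.12, 0.11 and -0.08 and no such order: replicate 1 was lowest in Il1a and Il18, replicate 2 in Il1rn and Il1r2, and replicate 3 in the other four.

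Marker lists of cell types moved in part with the genes. Relative to the control mean, the neutrophil list stood at 1.07, 2.41 and 2.26 in CLEC4C-DTR replicates 1, 2 and 3 (log2 mean of 12 genes), so replicate 1 was lowest there too. The monocyte and macrophage list stood at 0.77, 1.0 and 1.12, and the T and NK cell list at 0.45, 0.86 and 0.48. Replicate 1 was lowest in both, though hardly below replicate 3 in the T and NK cell list. Other lists had another order. Replicate 1 was highest in the basophil and eosinophil list, at 0.47, 0.15 and 0.24 in replicates 1, 2 and 3. In the mast cell list, at 0.24, 0.14 and 0.31, replicate 2 was lowest. The neutrophil list had a mean level of 8.01 to 9.34 in CLEC4C-DTR and 6.72 to 7.04 in control ears. Of its 12 genes 9 rose and none fell, where 5.01% of all genes rose. S100a8 and S100a9, the calprotectin subunits, rose 3.06-fold and 2.80-fold. Retnlg, a resistin-like protein of neutrophils, rose 7.58-fold, and Mmp9, a gelatinase, 4.83-fold. Camp, Ngp and Ltf, also of this list, differed by -0.08, 1.2 and 0.31 (log2) and did not pass. Of the monocyte and macrophage list 7 of 10 rose and none fell (mean level 9.17 to 9.51 against 8.22 to 8.62), and Cd68, a lysosomal protein of macrophages, rose by 0.92 (log2). Mrc1, the mannose receptor, Cd14, a co-receptor for endotoxin, and C1qa, a complement subunit, rose 2.96-fold, 8.53-fold and 2.19-fold. Adgre1, Lyz2 and Ccr2 of the same list differed by 0.36, -0.21 and 0.24 (log2) and did not pass. The T and NK cell list, which includes cells that respond to IL-18, had 3 of 9 genes that rose, Cd2, Icos and Nkg7, and none that fell (mean level 7.09 to 7.51 against 6.54 to 6.82). Cd3e, a chain of the T cell receptor complex, differed by 0.28 (adjusted p = 0.0655). In bulk skin, more cells of a type and more RNA per cell cannot be told apart, and the part of these cells in the values of Il1b, Il1rn, Il1r2 or Il18rap was not tested.

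Lists of resident skin cells and of other cell types are given here by their calls. Over all genes 5.01% rose, and 860 of 19938 fell. None of the 8 keratinocyte genes passed limma's test, with 4 at an unadjusted p under 0.05, and the list's mean level was 11.16 to 11.48 in CLEC4C-DTR and 11.34 to 11.44 in control ears. Its smallest p-values were those of Dsg3 and Dsc3, of desmosomes, Trp63, the transcription factor p63, and Krt10, a keratin of differentiated cells, with log2 differences of 0.39, -0.37, -0.33 and -0.46. The list was the brightest of the cell type lists on each array. Of 8 fibroblast genes Pdgfra rose, though not after a further quantile normalisation, and Dpt fell (mean level 9.17 to 9.37 against 9.37 to 9.62). Col1a2 and Lum, both of the matrix, differed by -0.41 and -0.38 and did not pass. Of 6 endothelial genes Pecam1 rose (6.92 to 7.01 against 6.87 to 6.94), and Tek, Emcn and Kdr, with differences of -0.23, 0.29 and -0.11, did not pass. Of 9 mast cell genes only Hdc rose, an enzyme of histamine synthesis that other myeloid cells also make (mean level 6.80 to 6.97 against 6.54 to 6.85). Mrgprb2, Kit and Cpa3 differed by -0.12, 0.12 and -0.23 and did not pass. The ILC2 list, lymphocytes that respond to IL-33, had 2 rises (Arg1 and Il7r) and 1 fall (Rora) among 5 genes (mean level 7.99 to 8.14 against 7.37 to 7.50). Arg1 and Il7r are made by other cells as well, and Gata3, a transcription factor of these cells, differed by -0.58 (adjusted p = 0.131). No basophil or eosinophil gene of 6 passed limma's test, with 1 at an unadjusted p under 0.05 (5.67 to 5.99 against 5.45 to 5.65). Mcpt8, a basophil protease, differed by 0.99 (adjusted p = 0.0834), and Prg2, Ccr3 and Prss34 by 0.20, 0.26 and 0.13. None of the 6 plasmacytoid dendritic cell genes passed it, with 2 at an unadjusted p under 0.05 (7.55 to 7.59 against 7.57 to 7.68). Tcf4, their defining transcription factor, differed by -0.41 (adjusted p = 0.0729), and Bst2, Ccr9 and Ly6d by 0.57, -0.26 and -0.17. Siglech, also of this list, differed by -0.17 (adjusted p = 0.378). The list's mean level is raised by bright genes such as Ly6d, at 11.27 in CLEC4C-DTR and 11.43 in control ears. Whether these cells were fewer in CLEC4C-DTR ears was not tested. Of the 6 muscle and cartilage genes none rose and 2 fell, Tnnt3 and Acan (8.41 to 8.85 against 8.94 to 9.41). Acan (adjusted p = 0.0496) did not pass with every probe set tested on its own, with robust moderation or with the replicate block. Acta1 and Ckm differed by -0.57 and -0.46 and did not pass.

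**Figure D3:**
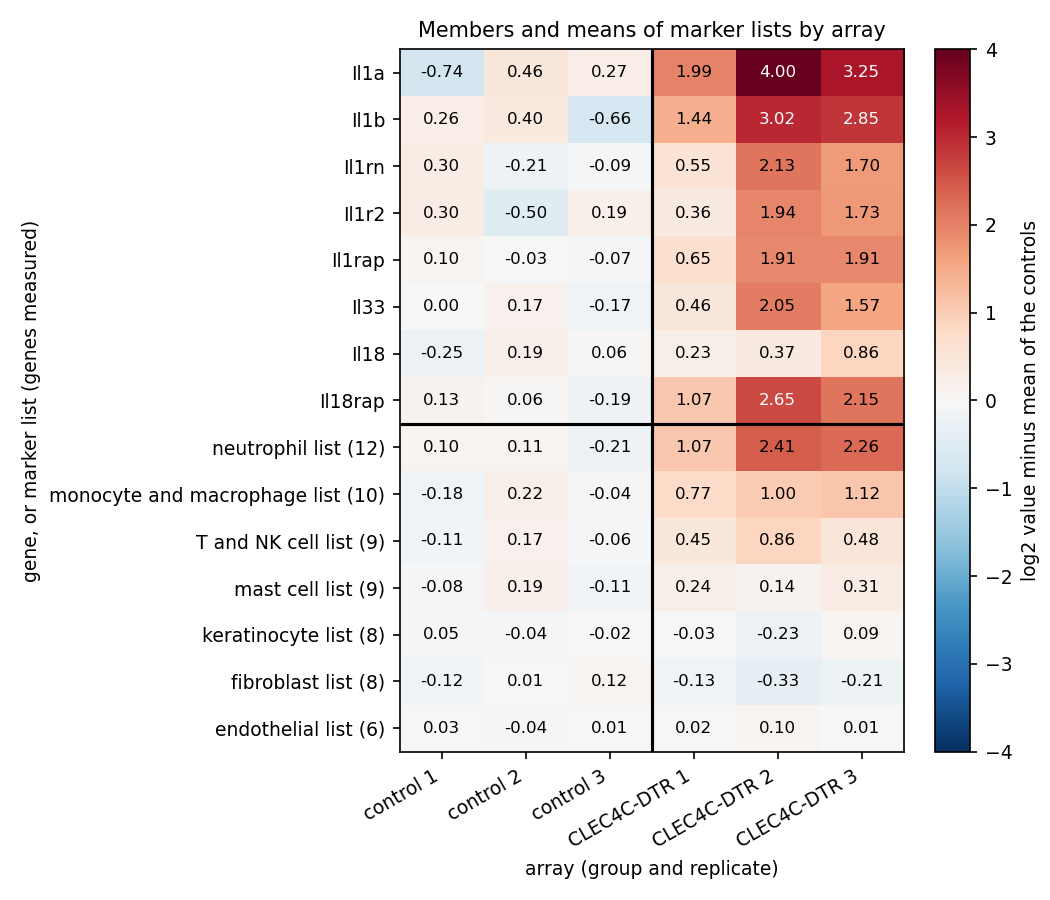
Log2 value minus the mean of the controls for the 8 genes and for the means of 7 marker lists (rows) on each of the 6 arrays (columns), with the value printed in each cell. CLEC4C-DTR replicate 1 has the lowest value of the 3 in all 8 genes. It is also lowest in the neutrophil, monocyte and macrophage, and T and NK cell lists, at 1.07, 0.77 and 0.45.

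The genes whose 6 values were most like those of Il1b were named by the root mean squared difference from it over the 6 arrays, each gene set against its own mean in the controls. They were Hdc (0.14 log2), Csf3r, the receptor of the neutrophil growth factor G-CSF (0.15), Cd300lf, a receptor of myeloid cells (0.19), Osm, the cytokine oncostatin M (0.20), and Cd33, a sialic acid-binding lectin of myeloid cells (0.21). These values describe 6 arrays.

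The rest of the IL-1 family was described by a list. Of 10 genes measured, 1 rose and none fell, with a list median of 0.18. The counts of this list and of the lists below stand beside the 5.01% of all genes that rose and the 860 of 19938 that fell. A count of 1 in a list is not read as a result about it. Il1f9, which encodes the agonist IL-36γ, rose 3.62-fold (log2 1.86, SE 0.37, adjusted p = 0.0261), with values of 8.69, 10.33 and 10.05 in CLEC4C-DTR and of 7.99, 7.78 and 7.73 in control ears. Here too CLEC4C-DTR replicate 1 was the lowest of its group. Il1f6, for IL-36α, differed by 0.99 (adjusted p = 0.0548) and Il18bp, a soluble protein that neutralises IL-18, by 0.42 (adjusted p = 0.0697).

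Of 18 adaptors and kinases that carry the signal from these receptors 1 rose and 1 fell, with a median of 0.08. Myd88, the adaptor that IL-1, IL-18 and IL-33 receptors use in common, rose by 0.79 (SE 0.18, log2, adjusted p = 0.0365), with values of 9.64, 9.74 and 9.61 against 8.72, 9.33 and 8.58. The CLEC4C-DTR values were close to each other, unlike those of the cytokines. Myd88 did not pass after a further quantile normalisation. Peli2, a ubiquitin ligase of the pathway, fell (log2 difference -0.40, adjusted p = 0.0480), but did not pass with the replicate number as a block. The kinase Irak2 differed by 0.81 (adjusted p = 0.0524) and Irak3, a brake on the pathway, by 0.56 (adjusted p = 0.0526).

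Among 17 genes of processing and release 4 rose and none fell, with a median of 0.30. Nlrp3, the inflammasome sensor, rose 4.95-fold (log2 2.31, SE 0.43, adjusted p = 0.0214), with values of 7.58, 9.34 and 9.17 in CLEC4C-DTR and of 6.26, 6.78 and 6.13 in control ears. Mefv, for the sensor pyrin, rose 2.04-fold. Gsdmd, the pore through which IL-1β leaves cells, and P2rx7, the ATP receptor that triggers NLRP3, rose by 0.60 and 0.68 (log2). Casp1, the protease that cleaves IL-1β and IL-18, differed by 0.69 (adjusted p = 0.0562). It was not among the 4 with the smallest p and is given because the system turns on it. Pycard, Nlrc4, Aim2 and Ctsg, also of this list, differed by -0.18, 0.07, 0.11 and -0.33 (log2) and did not pass. Of the 17 genes, 13 had a higher mean in CLEC4C-DTR ears and 4 a lower one.

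Genes that IL-1 induces, most of which other inflammatory signals induce as well, gave the most calls of the 6 pathway lists. Of 20 measured 10 rose and none fell, with a median of 0.91, where 5.01% of all genes rose. The 10 that did not pass include Cxcl1 and Il6, with log2 differences of 1.43 and 1.4. They also include Icam1, Vcam1, Sele and Ccl2, with differences of 0.32, -0.08, 0.11 and -0.06. Cxcl5, a neutrophil chemokine, rose 14.5-fold (adjusted p = 0.00919), with values of 9.30, 10.44 and 9.62 in CLEC4C-DTR and of 5.45, 6.70 and 5.63 in control ears. Its groups lay far apart, and CLEC4C-DTR replicate 1 was again the lowest of its group. Cxcl2, another neutrophil chemokine, rose 9.77-fold, Lcn2, an iron-scavenging lipocalin, 3.30-fold, and Ccl20, the ligand of Ccr6, 2.33-fold.

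Genes linked to IL-33 were mixed. Of 11 measured 2 rose and 1 fell, with a median of 0.12. Arg1, an arginase of alternatively activated macrophages and of ILC2, rose 7.39-fold (adjusted p = 0.00119), and Ccl24, a chemokine for eosinophils, 2.37-fold. Il5, the eosinophil growth factor, fell (log2 difference -0.36, adjusted p = 0.0368). It did not pass in any fit with an array left out, when arrays were centred or quantile normalised, or with the replicate block. Il13, a type 2 cytokine, differed by 0.55 (adjusted p = 0.0583). Of 10 genes linked to IL-18, 1 rose and none fell, with a median of 0.40. This was Stat4, a transcription factor downstream of IL-12 (3.99-fold, adjusted p = 0.0137). Gzmb, a protease of cytotoxic cells, differed by 1.39 with overlapping groups (adjusted p = 0.0769). Cxcl9, a chemokine that interferon-γ induces, differed by 0.71 (adjusted p = 0.183) and Prf1, the pore protein perforin, by -0.19 (adjusted p = 0.25).

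**Figure D4:**
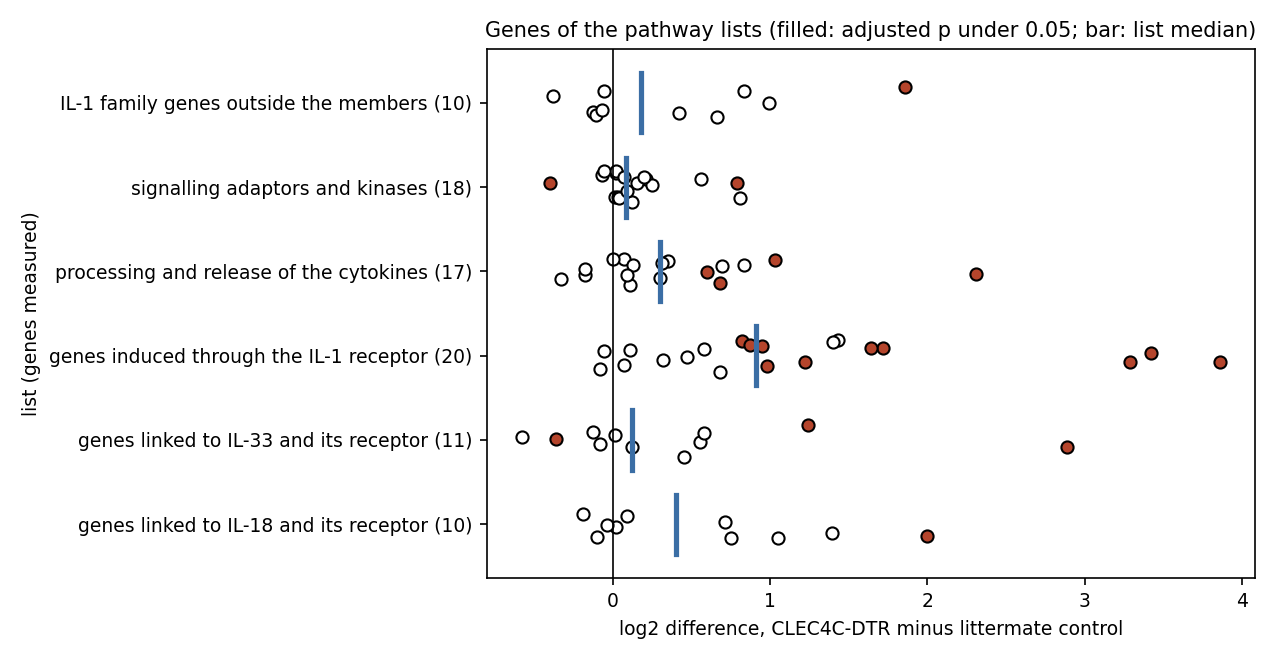
Difference between CLEC4C-DTR and littermate control (horizontal axis, log2) for each gene of the 6 pathway lists (rows, genes measured in parentheses); filled points passed an adjusted p of 0.05, the bar is the list median, and vertical scatter within a row has no meaning. The list of genes induced through the IL-1 receptor has the highest median, at 0.91.

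Whether a gene passed depended on single arrays. Of the 8 genes, 2 passed without CLEC4C-DTR replicate 2 (Il1a and Il18rap), 3 without littermate control replicate 2 (Il1a, Il1b and Il18rap) and 7 without CLEC4C-DTR replicate 1 (all but Il18). Without replicate 3 of the CLEC4C-DTR mice, or without replicate 1 or 3 of the controls, limma called 0 of them, although the unadjusted p was under 0.05 for 7, 7 and 8 genes. The difference of Il1a ranged from 2.62 to 3.62 over the 6 fits (adjusted p = 0.0013 to 0.0724) and that of Il1b from 2.11 to 2.93 (adjusted p = 0.00119 to 0.082). That of Il33 ranged from 1.02 to 1.81 (adjusted p = 0.000848 to 0.167). Genes induced through the IL-1 receptor that rose numbered 6 without CLEC4C-DTR replicate 2, 3 without replicate 3 of that group or without control replicate 1, and 2 when control replicate 3 was left out. The neutrophil list gave 4, 2, 3 and 2 in these fits. Of 34 genes called among those named from the lists, 6 passed in all 6 fits: Cxcl5, Lcn2, Arg1, S100a8, S100a9 and Cd68.

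**Figure D5:**
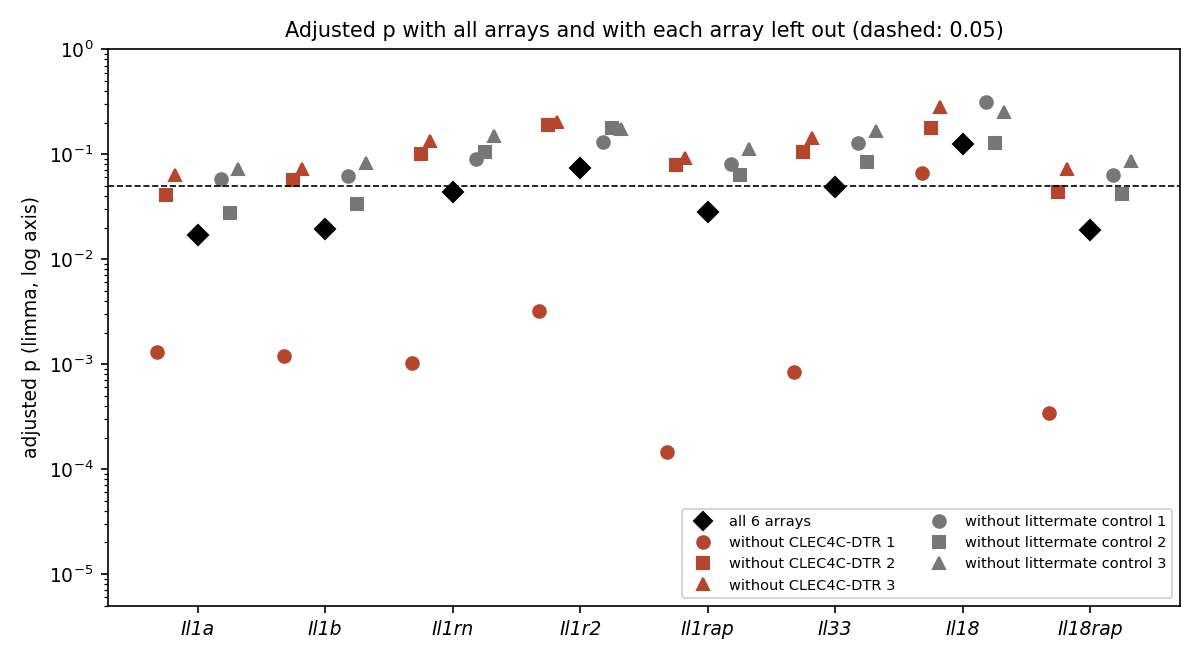
Adjusted p from limma (vertical axis, log scale) for each gene with all 6 arrays (diamonds) and with each array left out in turn; the dashed line is 0.05. Leaving out CLEC4C-DTR replicate 1 gives the lowest p in all 8 genes, and leaving out replicate 3 of that group, or replicate 1 or 3 of the controls, puts all 8 above the line.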

How the data were processed

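Total RNA of whole ear skin was read on biotin-labelled Affymetrix Mouse Gene arrays. The deposited log2 values come from RMA, per the series' design text. The log2 scale was read from the values (1.60 to 13.94), and array medians lay between 6.17 and 6.23. The software behind RMA was not named by any source used here, and mm8 is the build that the submitters' processing notes give. RMA gives all arrays nearly 1 distribution and compresses differences of dim genes. No background measure was used, so presence was not called.

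Of 35556 probe sets, 21789 have 1 listed symbol, 1621 several, and 12146 were unnamed here. Symbols were updated by Entrez ID (21698 found in RefSeq, GRCm38.p6), and the brightest probe set was kept for each of 19938 genes. The groups, 3 separate mice each, were compared with limma 3.58.1 (statmod 1.5.0, R 4.3.3; lmFit, eBayes, no covariate), with Benjamini-Hochberg adjustment over all genes. Pairs of genes were compared by exact permutation (scipy 1.17.1). The limma step was tested on simulated data. It recovered 18 of 50 genes changed by 0.5 on the log2 scale, 40 of 50 at 1.0 and 50 of 50 at 2.0. A gene with a small difference that did not pass may thus have been missed.

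The members and the 17 lists (6 of pathways, 11 of cell types) were chosen with earlier results of these data known. All members were named, and from each list the 4 genes with the smallest p. Casp1, Il1rl2 and Siglech fall outside this rule. So do the genes named as not passing in the neutrophil, macrophage, processing and IL-1-induced lists. They were added after their values were seen. Some lists share genes, and symbols such as Il36g were matched to the file's older names (Il1f9) through synonyms. With 3 arrays per group, their number limits the precision. Figures were drawn with matplotlib 3.10.9 (Python 3.11.15).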

Additional observations from a re-analysis of the deposited data

How the results depend on the processing

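There were 17 alternative settings, and under each of them every measured gene of the system kept a higher mean in CLEC4C-DTR ears. For the 8 genes this was fixed in the fits with an array left out and with array weights, because their groups did not overlap. Filters on mean level, averaging or separate testing of probe sets, the variance settings and the replicate block left each difference unchanged (3.08 for Il1a). Only median centring and the further quantile normalisation could have changed a sign. All genes called ranged from 67 to 2617 over those 6 fits (1858 with all arrays), the genes of the system called from 0 to 7 (6), and distinct genes called over all lists from 7 to 63 (48). With variances not moderated across genes, limma called 0 genes, with 4387 at an unadjusted p under 0.05, 0 genes of the system, with 6 at an unadjusted p under 0.05, and 0 list genes, with 66 at an unadjusted p under 0.05. Under the other 10 settings the system held 4 to 7 calls, with robust moderation giving 4 (Il1rn and Il33 lost, adjusted p = 0.0715 and 0.0783) and array weights 7. Median centring changed the split of all calls from 998 higher and 860 lower to 1064 and 738, and a further quantile normalisation to 940 and 997. Differences between pairs of genes kept their sign under every setting run, with -1.11 to -0.15 for Il1b minus Il1a with an array left out. Much of this was fixed beforehand. Median centring cancels within an array, and each of these genes had 1 probe set, so averaging probe sets changed nothing. For Il1b minus Il1rn and Il1b minus Il18 the groups did not overlap, so leaving out an array could not change the sign. Whether replicate numbers pair the mice is not known. Deviations of same-numbered arrays from their group means correlated by -0.06, 0.217 and 0.104 over genes. CLEC4C-DTR replicates 2 and 3 each correlated best with the control of the same number, but replicate 1 did so with control replicate 3 (0.177). With the replicate block 2084 genes, 6 genes of the system and 65 list genes were called. The pairs Il1r2 minus Il1r1 and Il1rl1 minus Il33 were not run, because 1 gene of each was not analysed here.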
